A study of Sus scrofa with 36 samples.

Results

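The genes described here are 50 protein-coding genes of pig chromosome 17, examined for how much RNA each gives in PiPSC clone 3, a pig induced pluripotent stem cell (iPSC) line, relative to PiPSC clones 1 and 2. They were listed because an earlier look at the same libraries had shown chromosome 17 genes higher in clone 3. They were thus chosen by the fitted ratio of clone 3 to clones 1 and 2. That ratio, its intervals and its calls are given below as a description only. Of the 50 genes, 49 stood in the tables, which held 20683 genes in all and 604 of chromosome 17. SNRPB was not analysed here. All 49 passed the filter on low counts, as did 445 of the 604 genes of the chromosome. On the RefSeq annotation of Sscrofa11.1 the listed genes lay on chromosome 17 between positions 14151810 and 58873396. Of these, 15 overlapped another annotated gene, among them the neighbours IDH3B and NOP56, and reads of such genes may be shared, since the sources used here do not give the strand setting of the counting.

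Cells in culture can gain or lose a whole chromosome, and the RNA of most genes then moves with the number of gene copies. A gene carried in 3 copies in place of 2, and read out in proportion, gives a ratio of 1.5. In human pluripotent stem cells a recurrent gain falls on a chromosome that corresponds to a part of pig chromosome 17, not to all of it. BCL2L1, which encodes the anti-apoptotic protein BCL-XL, is the gene most often discussed in that gain. DNA copy number was not analysed here, and all values below are RNA.

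Bulk RNA was sequenced in 36 libraries. There were 3 undifferentiated clones, with the differentiation status PiPS-EP1 minusPD c4 p11 for clone 1 (replicates 2 to 4, n = 3), PiPS-EP5 minusPD minusA83 c12 p10 for clone 2 (n = 4) and PiPS-EP5 minusPD minusA83 c18 p15 for clone 3 (n = 4). Pig fibroblasts (n = 4) were the somatic reference. Another clone, clone 8, was sampled undifferentiated on day 0 after removal of the mouse feeder cells, and as mesendoderm (day 1), presomitic mesoderm (day 2), somite (day 3), endothelial (day 6), cardiomyocyte (day 9) and neural progenitor cells (day 24), with 3 libraries each. Each clone is a single line, and the labels do not say that replicates were separate cultures, so the spread between them may be technical. In bulk RNA, fewer cells of a type and less RNA per cell cannot be told apart.

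Total estimated counts ran from 24314241 to 69879325 in clones 1 to 3, from 6877298 to 36738189 in fibroblasts and from 1845333 to 9727315 in clone 8. Summed TPM (a transcript level per gene length, with an equal sum in all libraries) of 5 pluripotency markers was 3370 to 3980 in clones 1 to 3, 2620 to 2720 in clone 8 on day 0 and at most 4.62 in fibroblasts. Several libraries stood apart. Clone 3 replicates 2 and 3 resembled each other far more (chi-square per degree of freedom 4.998) than other clone 3 pairs (44.6 to 66.8). Clone 1 replicate 4 had a higher rank correlation with a clone 2 library (0.972) than with its own clone (0.964), and clone 1 replicate 2 was as close to clone 3 (0.9598) as to its own clone (0.9595). Cardiomyocyte replicate 2 had a cardiac marker sum of 14.8 TPM and a neural sum of 1010 TPM, and neural progenitor replicate 1 had 12600 and 84.7 TPM, so both libraries went against their labels. The sums of 3 somite markers barely differed between the somite group (12.9 to 15.8 TPM) and day 0 (10.1 to 13.2 TPM). The Y-linked gene EIF1AY was at 63.9 to 116 TPM in clones 1 to 3, at 0 in fibroblasts and at most 2.22 TPM in clone 8. Over 21 tested genes of chromosome Y the median ratio of clones 1 and 2 to fibroblasts was 277, with 66.7% of the genes above 1. Over 22 such genes the ratio of clone 8 on day 0 to clones 1 and 2 was 0.0496, with 27.3% above 1. These groups thus differed in Y-linked RNA as well as in their labelled state.

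The listed genes gave more RNA in clone 3 than in clones 1 and 2, and so did most other genes of the chromosome. Over the listed genes the median ratio of clone 3 to the mean of clones 1 and 2 was 1.51 (quartiles 1.34 and 1.72, n = 49 genes), and the ratio was above 1 for 49 of 49. Over the other 396 tested genes of chromosome 17 it was 1.43 (quartiles 1.2 and 1.74), with 348 above 1. Over 14215 genes elsewhere it was 1.01 (quartiles 0.84 and 1.21). The medians of the 18 other chromosomes lay between 0.975 (chromosome 18) and 1.04 (chromosome 16). The sum of 5 fibroblast markers was 126 to 135 TPM in clone 3, 227 to 238 TPM in clone 1 and 162 to 274 TPM in clone 2, against at least 15800 TPM in fibroblasts. Most of it was COL1A1, at 95.4 to 99.3 TPM in clone 3, 185 to 200 TPM in clone 1 and 127 to 236 TPM in clone 2. COL1A2, THY1 and LUM in clone 3 overlapped clone 2. DCN also overlapped clone 2 and was higher in clone 3 (0.22 to 1.05 TPM) than in clone 1 (0.05 to 0.11 TPM). The part of these markers in the ratio of the listed genes was not tested.

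The excess ran along the whole chromosome. In 16 windows of 4 Mb, holding 8 to 59 tested genes each, the median ratio of clone 3 to clones 1 and 2 was 1.3 to 1.57. The listed genes fell in 11 of the windows. The ratio of clone 1 to clone 2 had window medians of 0.789 to 1.17. Among the listed genes the ratio had a rank correlation of 0.13 with position and of 0.04 with mean TPM (Spearman's rho over 49 genes of the same libraries, given as a description).

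**Figure D1:**
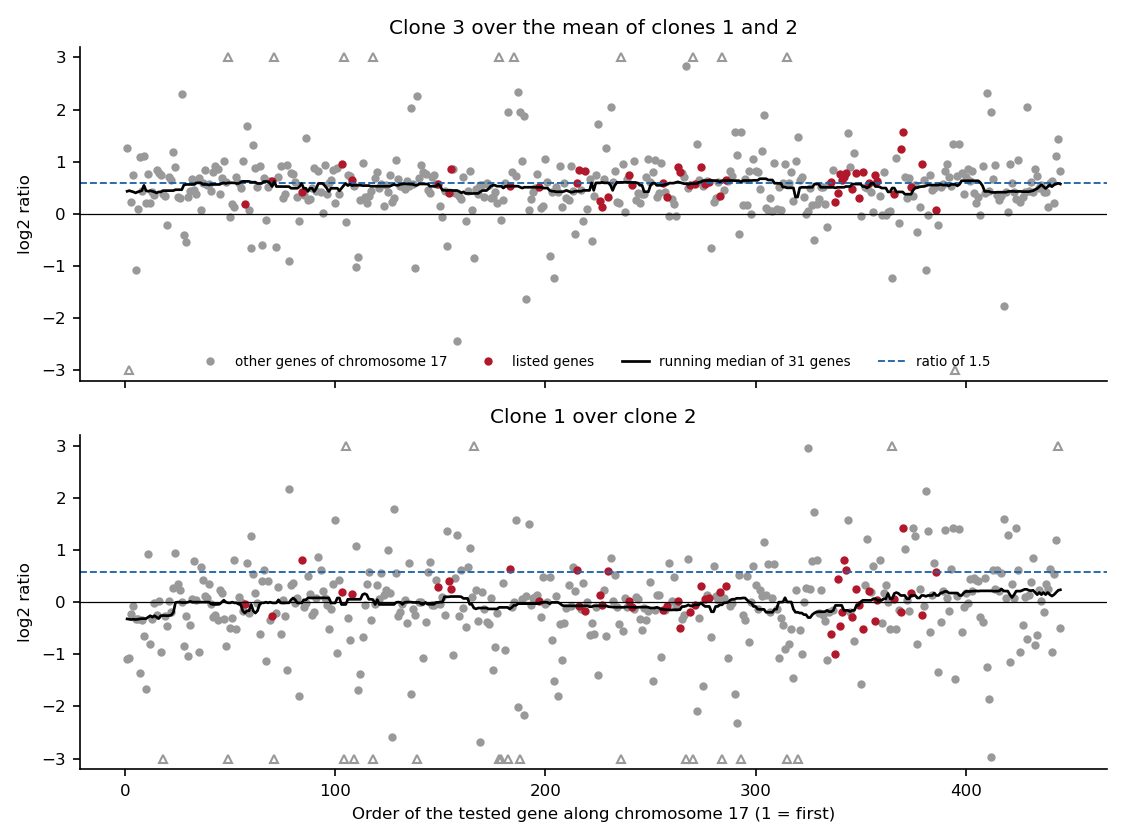
Log2 ratio of each tested gene of chromosome 17 in gene order, for clone 3 over clones 1 and 2 (top) and clone 1 over clone 2 (bottom), with listed genes in red, other genes in grey, values beyond the axis as triangles and a running median of 31 genes in black. The running median lies close to the dashed line for a ratio of 1.5 along the whole length in the top panel and near 0 in the lower panel.

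Each clone 3 library showed the excess by itself. Relative to the mean of clones 1 and 2, the median log2 ratio over the listed genes was 0.61, 0.63, 0.65 and 0.57 in clone 3 replicates 1 to 4 (SD 0.034), and 49, 48, 47 and 48 of the 49 genes were above the reference. In the 3 clone 1 libraries the same median was 0.10, 0.05 and -0.06, and in the 4 clone 2 libraries it was -0.02, 0.05, 0.01 and -0.03. Clone 8 on day 0 had 0.10, -0.02 and 0.06, within the range of the reference clones. The 4 fibroblast libraries had -0.81, -0.83, -0.80 and -0.65. The plot of chromosome medians shows chromosome 17 alone apart from the other chromosomes in the 4 clone 3 libraries.

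**Figure D2:**
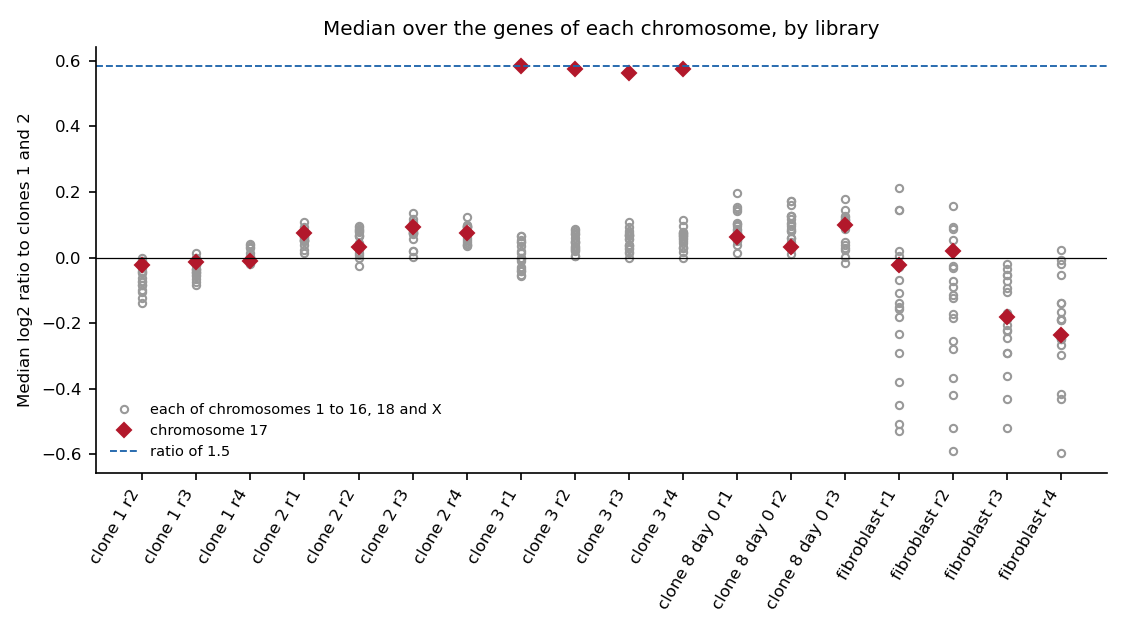
Median log2 ratio to clones 1 and 2 over the tested genes of each chromosome, by library, with chromosome 17 as red diamonds and each other chromosome as a grey circle. Chromosome 17 stands near the dashed line for a ratio of 1.5 in the 4 clone 3 libraries and among the other chromosomes in every clone 1, clone 2 and clone 8 library.

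As a share of all transcripts, chromosome 17 held 2.89% ± 0.0788 of TPM in clone 3 (SD, n = 4), 2.05% ± 0.0153 in clone 1 (n = 3), 2.07% ± 0.0622 in clone 2 (n = 4) and 2.24% ± 0.0413 in clone 8 on day 0 (n = 3). The 49 listed genes alone held 0.834% ± 0.0232 in clone 3, 0.586% ± 0.0134 in clone 1, 0.571% ± 0.0223 in clone 2, 0.654% ± 0.0131 in clone 8 on day 0 and 0.283% ± 0.0114 in fibroblasts (n = 4). Clone 3 did not overlap any of these groups. By mean TPM, clone 3 was the highest of the 4 undifferentiated groups for 31 of the 49 genes. The share over all genes was not taken for this count. For 13 genes all 4 clone 3 libraries exceeded all 10 other undifferentiated libraries, and for CRNKL1, DHX35, DPM1, EIF2S2 and PFDN4 they exceeded all 32 other libraries of the study. Of the 14898 genes tested with clone 8, 0.799% stood above all other undifferentiated libraries in this way and 0.255% above all other libraries, and among the other genes of chromosome 17 these shares were 13.2% and 3.81%. The listed genes were chosen as high in clone 3, and nothing is read from their counts.

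Gene by gene, most ratios could not be told from 1.5. The 95% interval of the ratio held 1.5 for 39 of the 49 genes and held 1 for 6, with 2 of these holding both values. The interval held 1.5 in 79.6% of the listed genes, 81.8% of the other tested genes of the chromosome and 45.5% of all tested genes. In the same order, it held 1 in 12.2%, 52.3% and 81.1%, and 1.5 but not 1 in 75.5%, 38.1% and 7.64%. Of the remaining listed genes, 5 lay wholly above 1.5 (DOK5, PFDN4, CRNKL1, DHX35 and CTNNBL1), and 5 lay wholly below it (SRSF6, STX16, PREX1, EDEM2 and CDS2). The genes nearest to 1.5 were PTPRA (1.49), TOP1 (1.5), PTPN1 (1.5), EIF2S2 (1.51) and SAMHD1 (1.51). The list itself had no threshold on the ratio. At an adjusted p under 0.05 (edgeR), 28 of the 49 were called higher and 0 lower (0 also by DESeq2 and limma), where 2.52% of all tested genes were called higher and 2.19% lower, and 26 of the 49 had no overlap of TPM between clone 3 and the libraries of clones 1 and 2, where 1.92% of all tested genes did. As the contrast chose the genes, nothing is read from these counts. Against clone 1 alone the median was 1.51 and 48 of 49 ratios were above 1, and against clone 2 alone it was 1.53 with 48 of 49. The exceptions were STX16 against clone 1 (0.857) and PREX1 against clone 2 (0.827).

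**Figure D3:**
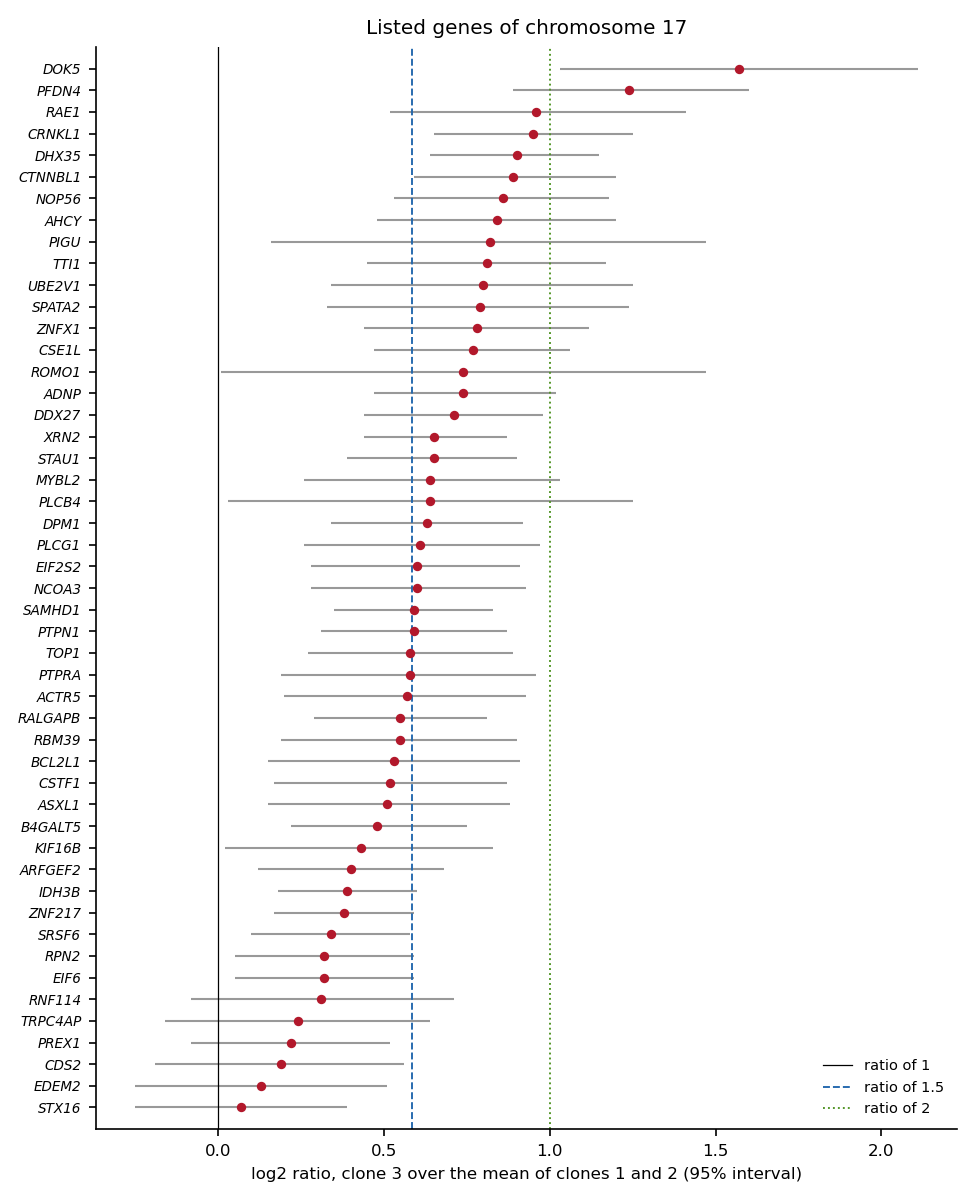
Log2 ratio of clone 3 over the mean of clones 1 and 2 for each of the 49 listed genes (points) with 95% intervals (bars), ordered by ratio. All 49 points lie above 0, and 39 intervals cross the dashed line for a ratio of 1.5.

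Genes of RNA splicing and 3′ end formation had a median ratio of 1.65 (6 genes, range 1.26 to 1.93). RBM39, a splicing factor at 17:39032141-39064803, was at 408, 384 and 336 TPM in clone 1, at 448, 452, 457 and 439 TPM in clone 2 and at 527, 536, 554 and 599 TPM in clone 3. All clone 3 libraries were higher than those of both clones, but clone 8 on day 0 (473, 507 and 554 TPM) reached into their range. CRNKL1, a core spliceosome protein, was at 28.6, 23.6 and 21.8 TPM in clone 1, at 23.8, 24.6, 21.9 and 26.6 TPM in clone 2 and at 46.9, 45.0, 45.7 and 38.9 TPM in clone 3, a ratio of 1.93 (95% interval 1.57 to 2.38). DHX35, an RNA helicase found in spliceosomes, was at 15.98, 16.2 and 14.5 TPM in clone 1, at 13.4, 13.3, 15.3 and 14.6 TPM in clone 2 and at 29.1, 23.8, 24.2 and 26.5 TPM in clone 3, a ratio of 1.86 (1.56 to 2.23). For CRNKL1 and DHX35 no clone 3 library overlapped the other undifferentiated clones. The splicing regulator SRSF6 had the lowest ratio of the group, 1.26 (1.07 to 1.5, the upper bound falling just short of 1.5 before rounding).

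Genes of RNA decay and transport had a median ratio of 1.64 (4 genes, 1.57 to 1.95). The interval of each excluded 1, but this ratio chose the genes, so nothing is read from that. XRN2, the nuclear exonuclease that degrades RNA behind terminating polymerase, was at 107, 119 and 123 TPM in clone 1, at 117, 122, 118 and 110.4 TPM in clone 2 and at 169, 173, 173 and 172 TPM in clone 3, with a ratio of 1.57 (1.36 to 1.82). The 4 clone 3 libraries were close together, and clone 8 on day 0 lay between, at 158, 145 and 156 TPM. RAE1, an mRNA export factor of the nuclear pore, was at 43.9, 20.8 and 38.0 TPM in clone 1, at 40.0, 48.3, 50.5 and 46.7 TPM in clone 2 and at 62.2, 80.0, 78.5 and 77.7 TPM in clone 3, a ratio of 1.95 (1.44 to 2.65). Replicate 1 was the lowest of the clone 3 libraries for RAE1, at 62.16 TPM, just below the range of clone 8 on day 0 (62.24 to 66.03 TPM). STAU1, a double-stranded RNA binding protein, had a ratio of 1.57 and ZNFX1, an RNA helicase of antiviral defence, 1.72.

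Genes of ribosome assembly and translation start had a median ratio of 1.57 (4 genes, 1.25 to 1.81). EIF2S2, the beta subunit of the initiation factor eIF2, had the highest TPM of the whole list, at 1014, 1047 and 1045 in clone 1, 724, 1020.2, 579 and 717 in clone 2 and 1240.4, 1323, 1379 and 1064 in clone 3. No clone 3 library overlapped, but the lowest exceeded the highest clone 1 library only slightly, and the ratio of clone 3 was 1.22 (0.929 to 1.6) to clone 1 and 1.87 (1.45 to 2.41) to clone 2. NOP56, a core protein of the particles that methylate ribosomal RNA, had a ratio to both clones of 1.81 (1.45 to 2.26), and DDX27, a helicase of ribosome assembly, of 1.64 (1.36 to 1.97). EIF6, which keeps the large ribosomal subunit from joining early, had a ratio of 1.25 (1.04 to 1.5).

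Transcription and chromatin genes had a median ratio of 1.5 (7 genes, 1.3 to 1.67), and all 7 intervals held 1.5. TOP1, the enzyme that relaxes DNA ahead of polymerases, was at 216, 233 and 226 TPM in clone 1, at 243, 259.8, 235 and 239 TPM in clone 2 and at 284, 338, 342 and 350.1 TPM in clone 3. The clone 3 libraries did not overlap those of either clone or of clone 8 on day 0 (226 to 271 TPM). The cell cycle regulator MYBL2 had a ratio of 1.56 and ADNP, a homeodomain protein of chromatin, of 1.67. The coactivator NCOA3 had 1.52, the chromatin remodelling subunit ACTR5 1.48, the Polycomb-associated ASXL1 1.43 and the zinc finger repressor ZNF217 1.3.

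BCL2L1, at 17:35366139-35415798, was at 205, 174 and 131 TPM in clone 1, at 108, 90.8, 105 and 80.5 TPM in clone 2 and at 197, 156, 154 and 163 TPM in clone 3. Clone 3 overlapped clone 1 and lay above clone 2. Its log2 ratio to the mean of both was 0.53 ± 0.18 (SE), a ratio of 1.45 (1.11 to 1.88), made up of 1.16 (0.837 to 1.6) against clone 1 and 1.8 (1.33 to 2.44) against clone 2. Clone 8 on day 0 was lower than all of these, at 61.3, 45.8 and 62.9 TPM, and fibroblasts were at 52.5 to 72.3 TPM. SPATA2, an adaptor in signalling by the tumour necrosis factor receptor, had a ratio of 1.72 (1.26 to 2.36).

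Signal transduction genes ranged most widely, from 1.17 to 2.97 with a median of 1.5 (7 genes). DOK5, an adaptor protein of receptor tyrosine kinases, had the highest ratio of the list, 2.97 (2.04 to 4.33). It was at 29.0, 14.0 and 26.8 TPM in clone 1, at 9.29, 9.76, 12.3 and 8.29 TPM in clone 2 and at 56.8, 39.2, 35.6 and 36.5 TPM in clone 3, with clone 8 on day 0 at 21.9, 17.3 and 19.5 TPM. Clones 1 and 2 themselves differed, so that the ratio of clone 3 was 1.82 to clone 1 and 4.85 to clone 2. PREX1, an exchange factor for Rac, was at 3.09, 3.31 and 3.37 TPM in clone 1, at 6.38, 7.06, 9.08 and 6.84 TPM in clone 2 and at 5.79, 4.96, 4.88 and 5.72 TPM in clone 3. Clone 3 thus lay between the clones without overlap, and its ratio to both together was 1.17 (0.948 to 1.44). PTPRA, a receptor-type tyrosine phosphatase, was at 47.5, 57.4 and 41.9 TPM in clone 1, at 39.2, 52.8, 48.5 and 41.7 TPM in clone 2 and at 66.8, 66.6, 65.0 and 65.6 TPM in clone 3. The phosphatase PTPN1 (1.5), the phospholipases PLCG1 (1.53) and PLCB4 (1.56) and RALGAPB, a regulator of Ral GTPases (1.46), completed the group.

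Glycosylation and endoplasmic reticulum genes had a median ratio of 1.32 (6 genes, 1.10 to 1.76). DPM1, the catalytic subunit of dolichol phosphate mannose synthase, was at 279, 228 and 234 TPM in clone 1, at 222, 215, 215 and 287 TPM in clone 2 and at 376, 405, 409 and 375 TPM in clone 3. All clone 3 libraries were above every library of clones 1 and 2. EDEM2, which takes part in disposal of misfolded glycoproteins, was at 24.6, 18.5 and 13.8 TPM in clone 1, at 23.6, 24.1, 22.9 and 18.5 TPM in clone 2 and at 25.1, 19.8, 19.7 and 19.6 TPM in clone 3. CDS2, an enzyme of phospholipid synthesis, was at 45.1, 55.4 and 58.6 TPM in clone 1, at 63.8, 64.0, 70.04 and 44.97 TPM in clone 2 and at 64.9, 54.8, 52.5 and 72.8 TPM in clone 3. For both genes clone 3 overlapped both clones, and the intervals excluded 1.5 and held 1 (EDEM2 1.10, 0.841 to 1.43, and CDS2 1.14, 0.876 to 1.48). PIGU, a GPI transamidase subunit, had 1.76 (1.12 to 2.77), the galactosyltransferase B4GALT5 1.4 and the oligosaccharyltransferase subunit RPN2 1.25.

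Membrane traffic genes had a median of 1.32 (3 genes). STX16, a SNARE of the trans-Golgi network, had the lowest ratio of the list, 1.05 (0.839 to 1.31). It was at 53.2, 66.3 and 42.2 TPM in clone 1, at 42.6, 27.8, 38.1 and 26.2 TPM in clone 2 and at 49.6, 30.6, 33.8 and 38.4 TPM in clone 3. Clone 3 overlapped both clones. The kinesin KIF16B had a ratio of 1.34 (1.02 to 1.78) and the Arf exchange factor ARFGEF2 of 1.32 (1.09 to 1.61).

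Protein folding and ubiquitin genes had a median of 1.74 (5 genes, 1.18 to 2.37). PFDN4, a subunit of the chaperone prefoldin, was at 91.7, 107 and 71.8 TPM in clone 1, at 106, 117, 106 and 134 TPM in clone 2 and at 189, 242, 264 and 213 TPM in clone 3, a ratio of 2.37 (1.85 to 3.04). Clone 3 was clear of clones 1 and 2 and of clone 8 on day 0 (131 to 140.1 TPM). UBE2V1, a partner of ubiquitin-conjugating enzymes, was at 76.6, 118 and 91.0 TPM in clone 1, at 146, 150.4, 169 and 149 TPM in clone 2 and at 152, 189, 203 and 246 TPM in clone 3, which overlapped clone 2. TRPC4AP, a substrate adaptor of a ubiquitin ligase, was at 38.9, 31.3 and 30.3 TPM in clone 1, at 32.1, 35.4, 41.1 and 29.5 TPM in clone 2 and at 38.6, 36.1, 33.9 and 41.7 TPM in clone 3. Its ratio of 1.18 (0.896 to 1.55) could be told neither from 1 nor from 1.5. TTI1, a cochaperone of large kinases, had 1.75 and the ubiquitin ligase RNF114 1.24.

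Among metabolic genes the median was 1.59 (4 genes, 1.31 to 1.79). AHCY, which hydrolyses S-adenosylhomocysteine, was at 383, 389 and 460.1 TPM in clone 1, at 465, 511, 494 and 476 TPM in clone 2 and at 674, 778, 756 and 790.4 TPM in clone 3, and clone 8 on day 0 had 762 to 787 TPM, within the range of clone 3. The nucleotide hydrolase SAMHD1 had a ratio of 1.51, the mitochondrial protein ROMO1 1.67 (1.01 to 2.76) and IDH3B, a subunit of isocitrate dehydrogenase, 1.31. CSE1L, which carries importin alpha back out of the nucleus, was at 102, 105 and 119 TPM in clone 1, at 158, 174, 189 and 152 TPM in clone 2 and at 173, 201, 207 and 283 TPM in clone 3. Clone 3 overlapped clone 2 and lay below clone 8 on day 0 (288, 295 and 298 TPM). The plot of 15 genes by group shows these overlaps.

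**Figure D4:**
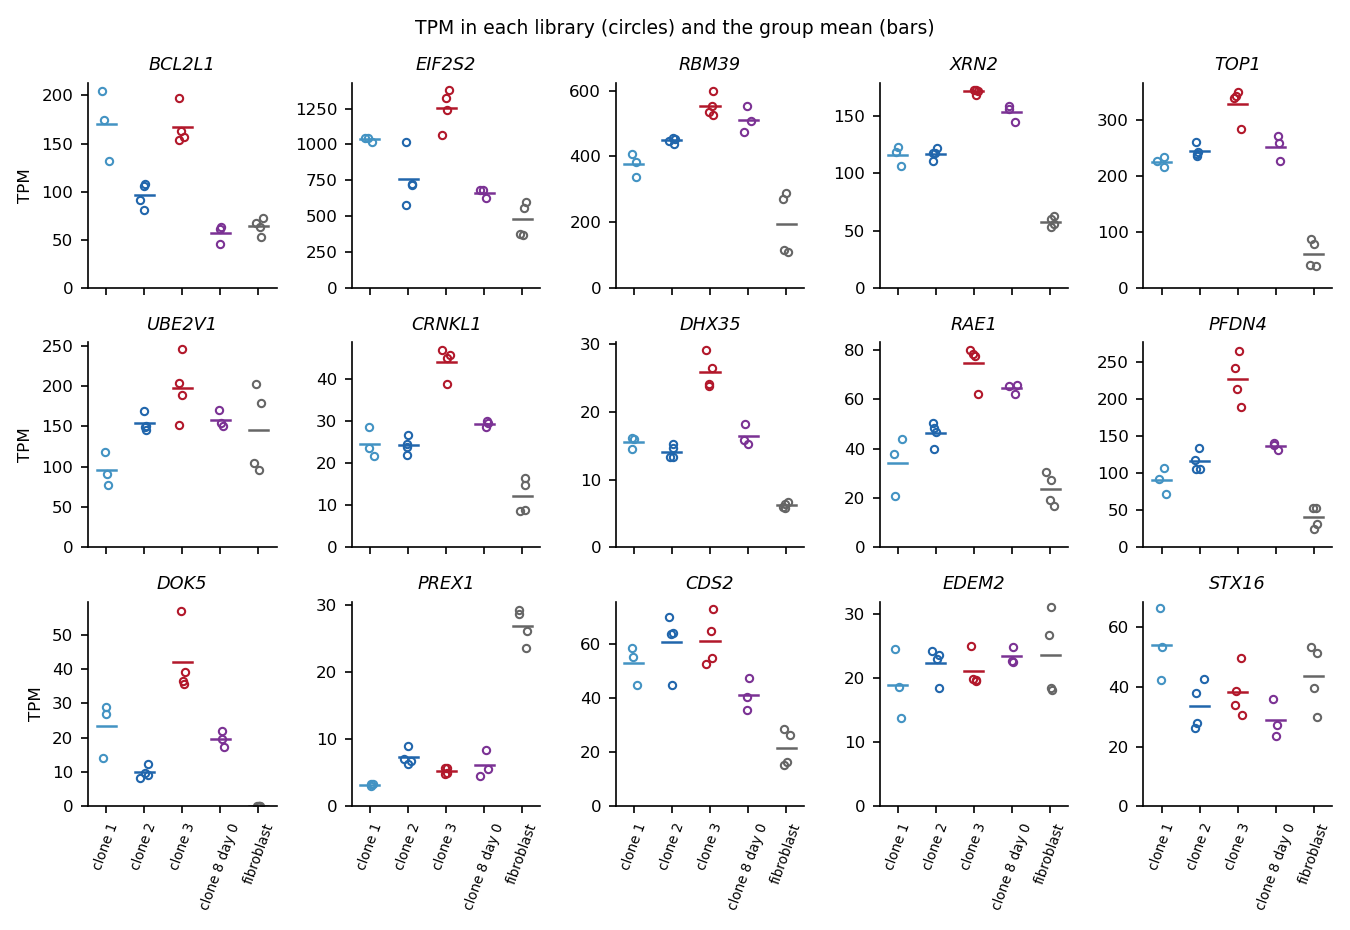
TPM of 15 listed genes in each library (circles) with the group mean (bars), each panel on its own axis starting at 0. Clone 3 lies apart from clones 1 and 2 for genes such as XRN2, CRNKL1, DHX35 and PFDN4, overlaps clone 1 for BCL2L1 and overlaps both clones for STX16, EDEM2 and CDS2.

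Several listed genes encode subunits of complexes whose other subunits lie on other chromosomes. In 12 such complexes, of which the Sm ring had no tested gene on chromosome 17, 13 tested subunit genes on chromosome 17, all but PIGT and RALGAPA2 of them listed genes and so chosen by this contrast, had a median ratio of clone 3 to clones 1 and 2 of 1.51 (1.05 to 2.37), and 45 subunit genes elsewhere (TTI2 among them, with no assigned chromosome) had a median of 1.12 (0.627 to 1.58). In the eIF2 complex EIF2S2 had 1.51 beside 1.15 for EIF2S1 and 1.17 for EIF2S3. In the box C/D particle NOP56 had 1.81 beside 1.19 to 1.24 for its 3 partners, and in prefoldin PFDN4 had 2.37 beside 1.12 to 1.37 for 5 partners. PIGT, a transamidase subunit on chromosome 17, was at 1.05 (0.631 to 1.73), and DPM2, elsewhere, was at 1.58 (0.782 to 3.18). SNRPE of the Sm ring, at 1.55 (1.25 to 1.93), was the only one of the 45 subunit genes elsewhere that was called. Over all tested genes, 2.52% were called higher and 2.19% lower. In the oligosaccharyltransferase RPN2 (1.25) lay below its partner OST4 (1.28, 0.813 to 2).

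**Figure D5:**
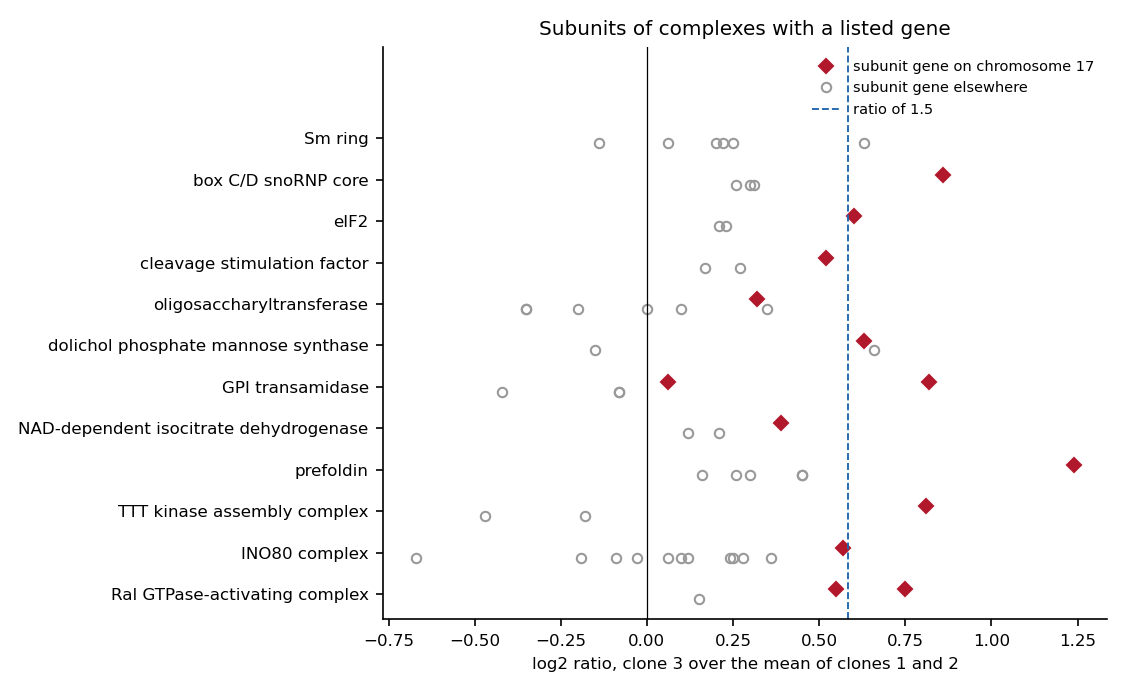
Log2 ratio of clone 3 over clones 1 and 2 for subunit genes of 12 complexes, as red diamonds for genes on chromosome 17 and grey circles for genes elsewhere. In most complexes the chromosome 17 subunit lies to the right of its partners, with DPM2 and OST4 as exceptions.

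In the BCL2 family, 10 tested genes elsewhere in the genome had a median ratio of 0.855 (0.54 to 1.35), and BAK1, a pore-forming promoter of apoptosis, was the only one called (0.54, 0.383 to 0.763). Over all tested genes, 2.19% were called lower in this contrast. MCL1, an anti-apoptotic relative of BCL2L1, was at 0.822 (0.680 to 0.994) and BCL2 at 1.04. Around BCL2L1, 21 tested genes that lie in the recurrent human gain had a median of 1.45, the same as over all tested genes of the chromosome, and 6 of them were called higher, where 27% of the chromosome's tested genes and 2.52% of all tested genes were. These were TPX2 (1.75), a spindle protein, PDRG1 (2.01), POFUT1 (1.41), KIF3B (1.71), MAPRE1 (1.52) and DNMT3B (2.06), the DNA methyltransferase that was also the most abundant transcript of the chromosome. Without DNMT3B the chromosome still held 2.62% to 2.74% of TPM in clone 3 and 1.86% to 2.00% in clones 1 and 2.

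The contrasts without clone 3 were tested, as none of them was the contrast that chose the genes. Clones 1 and 2 were the reference in that contrast, however, so comparisons that hold their libraries are not independent of the choice. Between clones 1 and 2, 7 of the 49 listed genes were called, 6 higher in clone 1 and 1 lower, a share of 14.3% where 9.31% of all tested genes were called (4.47% higher and 4.84% lower), and the median ratio was 1.02. DOK5 was 2.66-fold higher in clone 1 (log2 1.41 ± 0.31 SE, edgeR adjusted p = 0.0157), DDX27 was 1.75-fold higher (0.81 ± 0.16, adjusted p = 0.00553) and KIF16B 1.76-fold higher (0.82 ± 0.23, adjusted p = 0.0373). PREX1 was lower in clone 1, with a ratio of 0.502 (log2 -0.99 ± 0.18, adjusted p = 0.00326). For DDX27 (234 to 248 TPM in clone 1, 136 to 176 TPM in clone 2), DOK5 and PREX1 the libraries did not overlap, while for KIF16B clone 1 replicate 4 (15.3 TPM) fell within clone 2 (13.4 to 19.9 TPM). Without overlap, 7.04% of all tested genes lay higher in clone 1 and 21.1% lower. KIF16B lost its call without any library except clone 1 replicate 4 and on log2(TPM + 1) (limma adjusted p = 0.177), and DOK5 without clone 1 replicate 2 (edgeR adjusted p = 0.051). The count fell to 2 without clone 1 replicate 2, to 3 without clone 1 replicate 3, clone 2 replicate 1 or clone 2 replicate 3, and to 4 without clone 2 replicate 4. The share of all genes called in these fits was not set beside the counts. On log2(TPM + 1) with limma, 4 were higher and 5 lower, with the median of all genes at -0.16.

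Against fibroblasts the listed genes were mostly higher in clones 1 and 2. Of the 49, 30 were higher and 9 lower, a share of 79.6% where 73.2% of all tested genes were called, with 61.2% against 38% higher and 18.4% against 35.1% lower. The median ratio was 1.78, beside 0.994 for the other genes of chromosome 17. MYBL2 was 18.4-fold higher (136 to 226 TPM in the clones, 6.78 to 13.5 in fibroblasts, adjusted p = 3.59e-11 with edgeR) and AHCY 17.8-fold higher (383 to 511 against 14.6 to 30.8 TPM, adjusted p = 1.38e-11). DOK5 had 0 counts in all 4 fibroblast libraries and was at least 187-fold higher in the clones when fibroblasts were set to 3 counts in total, a limit for counting error alone. PREX1 had a ratio of 0.16 (fibroblasts at 23.7 to 29.2 TPM), ZNFX1 of 0.20 (28.2 to 38.4 TPM in fibroblasts, 5.98 to 9.64 in the clones) and KIF16B, TRPC4AP and PIGU of 0.428, 0.426 and 0.442. Fibroblast libraries 1 and 2 differed from 3 and 4 (chi-square per degree of freedom 112 to 142 across, 6.39 and 25.96 within), and with either pair alone 41 and 40 listed genes were called.

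Over the listed genes clone 8 on day 0 had a median ratio to clones 1 and 2 of 1.02, beside 1.04 over all tested genes. Of the 49, 16 were called (32.7%, where 27.7% of all tested genes were, 13.5% higher and 14.2% lower), 6 higher and 10 lower in clone 8. On log2(TPM + 1) with limma the split was 19 higher and 5 lower, with the median of all genes at 0.25 and that of the listed genes at 0.32. All 6 higher and 5 of the 10 lower genes were called the same way on both scales. BCL2L1 was among these 5, with a ratio of 0.441 (log2 -1.18 ± 0.20 SE, edgeR adjusted p = 0.000271). PTPN1 (0.54, adjusted p = 0.000182) was lower on both scales, and CDS2 (0.54, adjusted p = 0.00235 with edgeR) was lower on counts only. CSE1L was 1.76-fold higher in clone 8 (adjusted p = 0.000274), ZNFX1 1.74-fold (14.5 to 18.5 TPM, adjusted p = 0.00144) and TTI1 1.63-fold (10.5 to 15.1 against 4.12 to 9.44 TPM, adjusted p = 0.00673, and 0.067 without clone 8 day 0 replicate 1), all with edgeR. The clone 8 libraries had fewer counts than those of clones 1 to 3 and differed in Y-linked RNA. The clone, the depth and this difference cannot be told apart. The ratio of clone 3 to clone 8 on day 0 had a median of 1.53 over the listed genes, with 45 of 49 above 1. Of the other tested genes of chromosome 17, 71.9% were above 1, and of all tested genes 47.5%.

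The listed genes together took different shares of transcripts in the groups of clone 8, with the highest in mesendoderm. The 49 genes held 0.654% of TPM on day 0, 0.712% in mesendoderm on day 1, 0.573% on day 2, 0.486% on day 3, 0.457% on day 6, 0.367% on day 9 and 0.396% on day 24, with SDs of 0.00641 to 0.0433 (n = 3 each). The means of days 9 and 24 each include a library that went against its label. These were cardiomyocyte replicate 2 (0.392%, others 0.352% and 0.359%) and neural progenitor replicate 1 (0.348%, others 0.432% and 0.408%). BCL2L1 had libraries below those of day 0, without overlap, in mesendoderm, the presomitic mesoderm group and the endothelial group, at 45.8, 61.3 and 62.9 TPM on day 0, 12.01, 20.4 and 22.2 in mesendoderm, 24.1, 28.4 and 36.5 in presomitic mesoderm, 49.6, 69.5 and 70.8 in the somite group and 18.9, 32.7 and 36.95 in the endothelial group. It was not called in the endothelial group (ratio 0.648, edgeR adjusted p = 0.0606) or the somite group (1.32, edgeR adjusted p = 0.217), and mesendoderm and presomitic mesoderm were not tested. In the endothelial group 30.6% of all tested genes lay below day 0 without overlap. That share was not taken for mesendoderm and presomitic mesoderm. The cardiomyocyte and neural groups, each with a library that went against its label, were not compared with day 0.

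In the somite group on day 3, 14 of the 49 genes differed from day 0 (28.6%, where 23.5% of all tested genes did, 12.2% higher and 11.3% lower), 3 higher and 11 lower, with a median ratio of 0.856. The other tested genes of chromosome 17 had a median ratio of 0.993, with 10.3% called higher and 11.8% lower. TTI1 fell from 10.5, 13.1 and 15.1 to 3.44, 3.89 and 4.35 TPM (ratio 0.302, edgeR adjusted p = 0.00101), NOP56 from 403, 527 and 538 to 172, 179 and 208 TPM (0.381, adjusted p = 0.00258 by edgeR) and MYBL2 from 283, 305 and 359 to 117, 134 and 139.9 TPM (0.412, adjusted p = 0.00104 by edgeR). The groups did not overlap for any of the 3 genes, but 30.3% of all tested genes lay below day 0 without overlap. PLCB4 rose 2.63-fold, from 5.62, 6.85 and 6.88 to 15.4, 15.5 and 19.5 TPM (adjusted p = 0.00604 by edgeR). EDEM2 rose 1.89-fold and TRPC4AP 1.33-fold, and EDEM2 lost its call without any library except somite replicate 1, and TRPC4AP without any of the 6. Without the pair of cardiomyocyte and neural libraries that went against their labels, which share the estimate of spread, 25 genes were called, 6 higher and 19 lower, where 49.4% of all tested genes were.

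In the endothelial group on day 6, 13 of the 49 genes differed from day 0 (26.5%, where 19.3% of all tested genes did, 11.6% higher and 7.76% lower), 1 higher and 12 lower, with a median ratio of 0.863. The other tested genes of chromosome 17 had a median ratio of 1.05, with 11.3% called higher and 8.21% lower. MYBL2 fell to 61.0, 70.6 and 77.0 TPM (ratio 0.225, edgeR adjusted p = 1.46e-05) and ARFGEF2 from 21.1, 22.8 and 25.6 to 9.80, 10.2 and 10.9 TPM (0.455, adjusted p = 0.000949 by edgeR). ZNFX1 fell from 14.5, 16.7 and 18.5 to 4.86, 5.85 and 7.18 TPM (0.369, adjusted p = 0.0445 by edgeR), a call that was lost without any one of the 6 libraries. RNF114 rose 1.67-fold, from 34.5, 39.4 and 43.4 to 61.3, 62.2 and 68.3 TPM (adjusted p = 0.0172 by edgeR), and lost its call without day 0 replicate 2 or 3 or endothelial replicate 1. The count of calls was 8 without day 0 replicate 3 or endothelial replicate 2, and 25 without the pair of libraries against their labels, 4 higher and 21 lower, where 45.1% of all tested genes were called. For the count of 8 the share of all genes was not set beside it. Both comparisons used the same day 0 libraries.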

How the data were processed

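Per the labels, RNA extracted with a QIAGEN kit went into libraries built by the ligation-mediated sequencing protocol. RSEM 1.2.3, Bowtie 1.2.3, bcl2fastq and the build Sscrofa11.1 are named in the submitters' processing notes. The authors deposited expected counts (reads that RSEM assigned to a gene, in part by estimation) and TPM per gene and library. All columns were mapped to samples by title, and 0 were left out. Symbols of 20622 of 20683 genes matched RefSeq on Sscrofa11.1, which gave chromosomes and positions. Gene sequences were not used here.

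Expected counts were rounded to whole numbers and fitted with edgeR 4.0.16 in R 4.3.3 (quasi-likelihood test, TMM scaling, filterByExpr with a minimum count of 10, Benjamini-Hochberg over all genes tested). One model held fibroblasts and clones 1 to 3 (15 libraries, 14660 genes), another added clone 8 on day 0 (18 libraries, 14898 genes) and the last held clone 8 (21 libraries, 14248 genes). Clones 1 and 2 weighed equally in their mean. The SE was the size of the log2 change divided by the square root of F, and intervals are 95%. TPM entered limma 3.58.1 as log2(TPM + 1) and log2(TPM + 0.1), as alternatives. Further alternatives were DESeq2 1.42.0, RLE scaling, TMM from genes outside chromosome 17, no filter, only the groups compared, a replicate block and leaving out libraries. Methods were tested on simulated data. The members, lists and tests were chosen with earlier results of these data known. Named with values by library were BCL2L1, the 5 highest and 5 lowest ratios and the most abundant gene of each role, and in other comparisons the 3 largest calls in each direction. KIF16B and PIGU against fibroblasts, SPATA2 and the genes given by ratio alone stand beside them as members, and BCL2L1 over the days of clone 8 was chosen after its values were seen. Replicate numbers did not pair the libraries. The sources used here do not give the strand setting.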

Additional observations from a re-analysis of the deposited data

Results flagged for a closer look

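In 8 of 153 groups of 4 libraries tested, the highest or lowest library lay far from the other 3 by Dixon's criterion, which by chance picks about 1 in 20 groups. Clone 3 replicate 1 was low for RAE1 (62.16 TPM, others 77.73 to 80.02) and high for EDEM2 (25.07 TPM, others 19.61 to 19.81) and DOK5 (56.77 TPM, others 35.62 to 39.16). Clone 3 replicate 4 was low for DDX27 (243.88 TPM, others 307.5 to 319.28) and high for SAMHD1 (78.2 TPM, others 54.71 to 57.33). Clone 2 replicate 2 was high for EIF6 (262.66 TPM, others 235.57 to 238.71) and for the share of TPM held by all 49 listed genes (0.6039%, others 0.5571% to 0.563%). Clone 2 replicate 4 was high for DPM1 (287.05 TPM, others 214.9 to 222.28).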

How the results depend on the processing

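The median ratio of the listed genes in clone 3 was 1.51 and stayed at 1.5 to 1.54 when each library was left out, at 1.4 on log2(TPM + 1) and at 1.42 on log2(TPM + 0.1). For all genes of chromosome 17 it was 1.45, with 1.44 to 1.48 on leaving out each library, 1.27 and 1.37 on the 2 TPM scales, 1.48 with the replicate block and 1.5 without clone 1 replicates 2 and 4. Calls of listed genes in clone 3 numbered 28, and 17 and 16 on the TPM scales, 18 without clone 1 replicates 2 and 4, 16 with clone 3 replicates 2 and 3 merged, and 16 to 25 on leaving out each library (16 without clone 3 replicate 3, 17 without replicate 2). Calls between clones 1 and 2 numbered 7, and 12 by DESeq2, 11 with only the groups compared, 3 without clone 1 replicates 2 and 4, and 2 to 7 on leaving out each library. Somite calls numbered 14, and 31 with only the groups compared, 25 without the cardiomyocyte and neural libraries against their labels, and 10 to 12 on leaving out each library. Endothelial calls numbered 13, and 20 by DESeq2, 27 with only the groups compared, 25 without the same pair, and 8 to 9. Calls against fibroblasts (39) stayed at 37 to 42 and those of clone 8 on day 0 (16) at 12 to 24. The cause of these shifts was not tested. The share of all genes called was not set beside these counts or those with the replicate block below. No shift is therefore read as particular to the listed genes. STX16 in clone 3 fell below a ratio of 1 on both TPM scales, without clone 1 replicate 4, without clone 3 replicate 1 and without clone 1 replicates 2 and 4. The merged and omitted pairs of libraries were chosen after seeing the data.

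Replicate numbers did not pair the libraries (correlations of deviations -0.12 to 0.08 over 10 pairs of clones and 0 to 0.09 over 6 pairs in clone 8, 0 of them over 0.1). With the replicate block the calls were 22 in clone 3, 5 between clones 1 and 2, 39 against fibroblasts, 13 for clone 8 on day 0, 13 in the somite and 11 in the endothelial group.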
